A study of Homo sapiens with 6 samples.

Results

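The genes examined here are 10 protein-coding genes of the 8p11-p12 amplicon, a stretch of the short arm of human chromosome 8 whose copy number is raised in some breast cancers. In order from the telomere towards the centromere they are ERLIN2, BRF2, RAB11FIP1, ASH2L, LSM1, BAG4, DDHD2, NSD3, TACC1 and ADAM9. They were taken by name from a list chosen with earlier results of these data known, so shares of members passing are descriptive. Every Affymetrix probe set annotated with 1 of these symbols alone was read. This gave 15 probe sets of 22215 tested, and all 10 genes of the list were represented among the 11963 genes with such a probe set. A single probe set read 6 of the genes, and 4 genes had several. In the RefSeq gene table the stretch from ERLIN2 to ADAM9 holds 22 protein-coding genes, and the annotated spans of DDHD2 and NSD3 overlap.

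The groups are LCCTam, a variant of the SUM44 line that is resistant to tamoxifen, and SUM44 itself, an established line of lobular breast carcinoma, positive for estrogen and progesterone receptors by its label. Both were cultured in SFIH medium. LCCTam was sampled at passages 8, 9 and 10 with 500 nM 4-hydroxytamoxifen in the medium, and SUM44 at passages 74, 75 and 76 with no drug named in its protocol. These are replicates 1 to 3 of each line. LCCTam is 1 derivative of 1 parent, so the line, its drug, its passage number and its history cannot be told apart. The labels do not say that the passages were separate cultures, and the p-values then measure only a spread that may be technical.

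An amplicon is a segment of a chromosome present in extra copies, and genes inside it are often expressed above the level of normal cells in proportion to their copies. The 8p11-p12 amplicon is known in luminal breast cancers and in SUM44 in particular, and several of its genes have been studied as candidate oncogenes. Its genes have unrelated functions, among them lipid handling in the endoplasmic reticulum, transcription by RNA polymerase III, histone methylation, RNA decay, membrane recycling, spindle organisation and shedding of surface proteins. Arrays of RNA do not measure copy number, and copy number was not analysed here.

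Values are log2 expression values made by RMA, so a difference of 1 is a 2-fold change. Medians lay between 5.92 and 5.97 on all 6 arrays, but the upper quartiles were 7.67, 7.70 and 7.50 in LCCTam, each below the 7.77, 7.73 and 7.72 of SUM44. LCCTam replicate 3 stood apart: the 3' control for actin exceeded the 5' control by 1.92 there and by 0.90 to 1.15 elsewhere, and for GAPDH by 0.61 there and by 0.09 to 0.31 elsewhere. Luminal markers other than MUC1 were bright in both lines (KRT18 at a mean of 13.18 in LCCTam and 13.40 in SUM44, GATA3 at 12.57 in LCCTam and 12.80 in SUM44). Of the 9 luminal markers 1 passed, ESR1, lower in LCCTam. At an unadjusted p under 0.05, 3 were lower and 0 higher, where 14.9% of all genes were lower. MUC1 averaged 7.05 in LCCTam and 8.42 in SUM44, and its lines did not overlap (limma adjusted p = 0.0547). The summed level of the luminal markers was 99.51 to 101.98 in LCCTam and 103.97 to 105.16 in SUM44. Of 9 fibroblast markers 1 passed, COL3A1, at a mean of 4.22 in LCCTam and 8.64 in SUM44 (difference -4.42). The median difference of the 9 was 0.0047. Their summed level, with COL3A1 included, was 45.45 to 46.47 in LCCTam and 49.99 to 50.38 in SUM44. Of 5 leukocyte and 5 endothelial markers 0 passed in limma and 0 had an unadjusted p under 0.05, with summed levels of 25.42 to 26.08 and 24.75 to 25.34 in LCCTam, against 25.12 to 25.56 and 24.81 to 25.22 in SUM44. The part of the marker differences in the results below was not tested.

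The 4 genes nearest the centromere, DDHD2, NSD3, TACC1 and ADAM9, passed the test as lower in LCCTam, and the 6 others did not pass. Whether the 4 differ from the 6 was not tested. Of the 15 probe sets 4 passed an adjusted p of 0.05 in limma, 1 for each of those 4 genes. All 4 were lower in LCCTam, and 0 were higher. Over all probe sets tested 5.16% passed as lower and 1.56% as higher. With at least a 2-fold change also required, 2 passed (TACC1 and ADAM9), against 1.70% of all probe sets. The study's own selection, per its design text, asks for 2-fold, an unadjusted p under 0.05 and an intensity of log2(10) in each line. With limma's p it took 3, 2 of TACC1 and 1 of ADAM9, against 2.04% of all. At an unadjusted p under 0.05, 8 member probe sets were lower and 0 were higher, where 13.9% of all probe sets were lower and 7.94% higher. The difference was below 0 for 14 of the 15 probe sets, and their median was -0.35, beside 0.016 over all probe sets. Most member probe sets were bright, while the shares over all probe sets include dim ones. With probe sets under 5.94 in both means removed, 5 of 13 member probe sets passed, all lower in LCCTam. Of the 11623 probe sets then tested, 1213 passed as lower and 367 as higher. Every LCCTam value lay below every SUM44 value for 8 probe sets and above for 1, with 6 overlapping. Over all probe sets these shares were 15.7% below and 13.0% above. In these bulk RNA samples fewer cells of a kind and less RNA per cell cannot be told apart. After quantile normalization 3 passed, and 57.1% of all calls were then lower in LCCTam, against 76.8% in the values as deposited. The count of 4 was 5 without LCCTam replicate 3, and it fell to 2 without LCCTam replicate 1, to 2 without LCCTam replicate 2 and to 1, ADAM9, without SUM44 replicate 2.

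**Figure D1:**
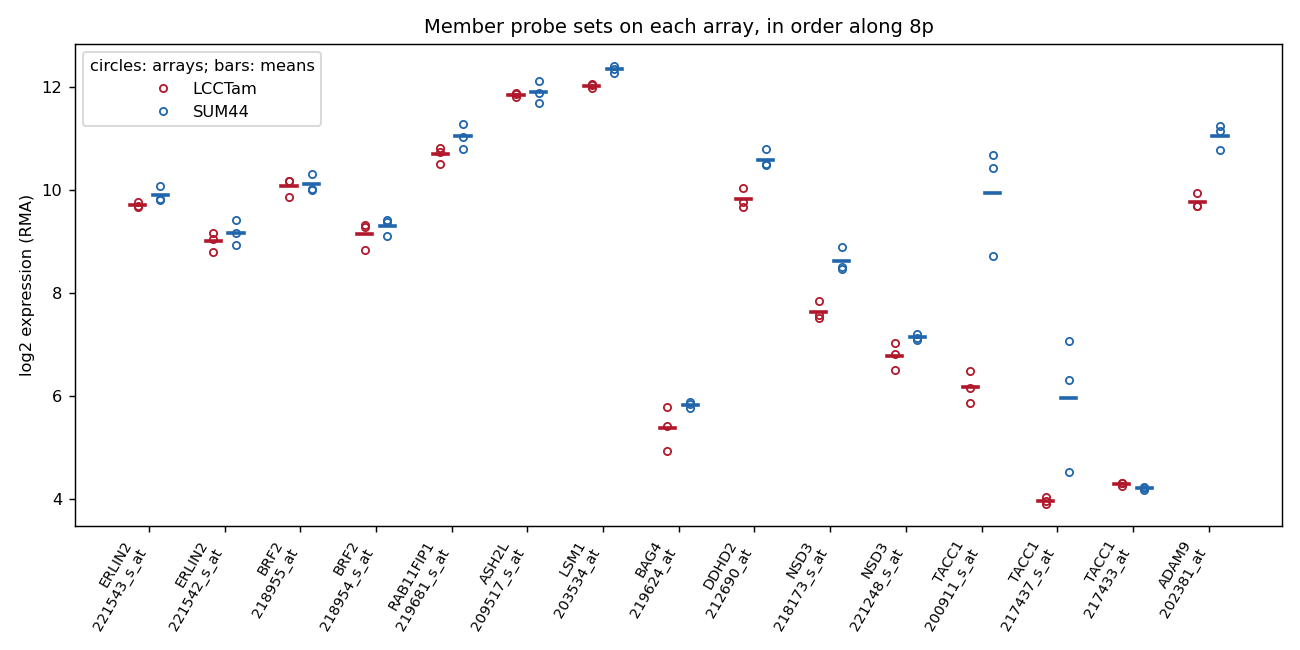
Log2 expression (RMA) of the 15 probe sets of the 10 genes on each array, in order along 8p from ERLIN2 to ADAM9, with LCCTam (red) left of SUM44 (blue). Circles are single arrays and bars are means of 3 arrays. The lines lie close for the probe sets from ERLIN2 to BAG4 and apart for DDHD2, the brighter NSD3 and TACC1 probe sets and ADAM9, and SUM44 replicate 3 lies low in TACC1 at 8.71.

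ERLIN2 encodes a lipid raft protein of the endoplasmic reticulum that takes part in the degradation of inositol trisphosphate receptors. Its brighter probe set, 221543_s_at, read 9.69, 9.77 and 9.67 in LCCTam replicates 1 to 3, against 9.82, 9.80 and 10.08 in SUM44 replicates 1 to 3. The lines did not overlap, but the gap between them was small: the difference was -0.19 (95% interval -0.43 to 0.05, limma adjusted p = 0.326). The other probe set, 221542_s_at, differed by -0.17 (interval -0.53 to 0.19, adjusted p = 0.571), and its lines overlapped.

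BRF2 encodes a subunit of the TFIIIB factor that starts RNA polymerase III transcription at genes of the U6 snRNA type. Its probe set 218955_at read 10.18, 10.17 and 9.87 in LCCTam, against 10.31, 10.02 and 10.01 in SUM44. The lines overlapped, with a difference of -0.04 (interval -0.34 to 0.26, limma adjusted p = 0.894). The second probe set, 218954_s_at, differed by -0.15 (interval -0.53 to 0.22, adjusted p = 0.624). LCCTam replicate 3 was the lowest LCCTam array for both, and without it the differences were 0.06 and 0.01. Both intervals lay inside a 2-fold change in either direction, but they rest on a spread that may be technical.

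RAB11FIP1 encodes an effector of RAB11 that steers recycling endosomes back to the cell surface. It read 10.81, 10.74 and 10.51 in LCCTam, against 11.28, 11.03 and 10.80 in SUM44, on the probe set 219681_s_at. The lines overlapped by the narrowest margin, LCCTam replicate 1 and SUM44 replicate 3 lying side by side. The difference was -0.35 (interval -0.69 to -0.01, limma adjusted p = 0.217).

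ASH2L encodes a core subunit of the COMPASS complexes, which methylate histone H3 at promoters. On 209517_s_at it read 11.81, 11.87 and 11.89 in LCCTam, against 11.69, 11.88 and 12.12 in SUM44. The 3 LCCTam values lay inside the SUM44 range, and the difference was -0.04 (interval -0.32 to 0.24, limma adjusted p = 0.875).

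LSM1 encodes a subunit of the ring that binds the 3' end of shortened mRNAs and leads to decapping. Its probe set 203534_at read 12.03, 12.05 and 11.98 in LCCTam, against 12.34, 12.41 and 12.27 in SUM44. All 3 LCCTam values were lower than all 3 SUM44 values, and both lines were tight. The difference of -0.32 (SE 0.08, interval -0.51 to -0.14) missed the threshold at a limma adjusted p of 0.0594. Leaving out single arrays moved it between -0.36 and -0.29 and called it in 0 of 6 fits.

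BAG4, the direct neighbour of LSM1 in the gene table, encodes a cochaperone of HSP70 that also binds the TNF receptor. Its probe set 219624_at read 5.42, 5.78 and 4.93 in LCCTam, against 5.76, 5.89 and 5.84 in SUM44. This is dim, at percentile 38.6 of all probe sets in LCCTam and 47.7 in SUM44, where differences can be compressed. The lines overlapped, and the low value of LCCTam replicate 3 carried much of the difference of -0.45 (interval -0.93 to 0.02, limma adjusted p = 0.252), which was -0.23 without that array.

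DDHD2 encodes an intracellular phospholipase and triglyceride lipase, and it was lower in LCCTam. The probe set 212690_at read 9.68, 9.76 and 10.04 in LCCTam, against 10.48, 10.51 and 10.79 in SUM44. The lines did not overlap, and the highest array of each line was replicate 3. LCCTam averaged 9.83 ± 0.19 and SUM44 10.59 ± 0.17 (SD, n = 3 each), a difference of -0.77 (SE 0.13, limma adjusted p = 0.0204), or 1.70-fold lower. The size held when single arrays were left out, between -0.88 and -0.67, but the call did not: DDHD2 passed in 2 of those 6 fits. The adjusted p was 0.0866 without LCCTam replicate 1, 0.0716 without LCCTam replicate 2, 0.0849 without SUM44 replicate 2 and 0.0530 without SUM44 replicate 3. After quantile normalization it was 0.0504, with a difference of -0.69.

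NSD3, also written WHSC1L1, encodes a histone methyltransferase of the NSD family, and it was lower in LCCTam by 1 of its 2 probe sets. The probe set 218173_s_at read 7.57, 7.51 and 7.84 in LCCTam, against 8.46, 8.50 and 8.89 in SUM44. LCCTam averaged 7.64 ± 0.18 and SUM44 8.62 ± 0.24 (SD, n = 3 each), a difference of -0.98 (SE 0.15, limma adjusted p = 0.0136), or 1.97-fold lower. The lines did not overlap. The adjusted p was 0.0660 without LCCTam replicate 1, 0.0540 without LCCTam replicate 2 and 0.0602 without SUM44 replicate 2, with differences between -1.08 and -0.84 over all single arrays left out. The second probe set, 221248_s_at, read 6.50, 6.81 and 7.04 in LCCTam, against 7.20, 7.09 and 7.13 in SUM44. Its lines did not overlap either, but LCCTam replicate 3 came close to the SUM44 values. The difference was -0.36 (interval -0.69 to -0.02, adjusted p = 0.199), and it was -0.49 (adjusted p = 0.0428) without LCCTam replicate 3.

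The annotation ties 218173_s_at to the transcript of the short form of NSD3, which lacks the catalytic domain and acts as an adaptor protein, and 221248_s_at to that of the long form with the catalytic domain. The transcripts that each probe set detects were not analysed here. The difference between the lines was 0.62 further below 0 on the first than on the second (-0.62). The exact permutation p of this gap was 0.1, two-sided, which is the smallest that 3 arrays against 3 allow, and 0.15 after adjustment over the 6 pairs of probe sets of one gene. The ERLIN2 pair and the BRF2 pair had gaps of -0.02 and 0.11 (exact permutation p = 0.6 and 0.5). The TACC1 pairs, given with that gene below, had wider gaps at the same p as the NSD3 pair.

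TACC1 encodes a coiled-coil protein of the centrosome and spindle, named for transforming acidic coiled-coil proteins, and it had the largest difference among the 15 probe sets. The probe set 200911_s_at read 6.48, 6.15 and 5.86 in LCCTam, against 10.68, 10.43 and 8.71 in SUM44. Every LCCTam array was lower than every SUM44 array, with a wide gap. LCCTam averaged 6.17 ± 0.31 and SUM44 9.94 ± 1.07 (SD, n = 3 each), a difference of -3.77 (SE 0.49, limma adjusted p = 0.00818), or 13.7-fold lower. Among all probe sets the LCCTam mean stood at percentile 54.2 and the SUM44 mean at percentile 93.4. The difference was between -4.39, without SUM44 replicate 3, and -3.40, without SUM44 replicate 1. Without SUM44 replicate 2 the adjusted p was 0.0522, and it passed in the 5 other fits with an array left out.

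The SUM44 arrays themselves differed in TACC1. Their range on 200911_s_at was 1.97, and 0.216% of all probe sets had a wider SUM44 range. The second probe set, 217437_s_at, read 7.06, 6.31 and 4.52 in SUM44 replicates 1 to 3, at passages 74 to 76, with a range of 2.55 that 0.099% of probe sets exceeded. Both probe sets were lowest in replicate 3. In LCCTam 217437_s_at read 3.91, 4.05 and 3.96, near the bottom of the array at percentile 7.95, so that the lines did not overlap. Its difference was -1.99 (SE 0.58, limma adjusted p = 0.0959), and without SUM44 replicate 3 it was -2.71 (adjusted p = 0.00429).

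The third TACC1 probe set, 217433_at, went against the other pair. It read 4.32, 4.26 and 4.31 in LCCTam, against 4.22, 4.17 and 4.24 in SUM44, so all 3 LCCTam values lay above the SUM44 values by a small margin. The difference was 0.09 (interval -0.08 to 0.26, limma adjusted p = 0.526). The probe set was dim in both lines, at percentile 14.7 in LCCTam and 13.0 in SUM44, and SUM44 replicate 3, which was low on the other 2 TACC1 probe sets, was its highest SUM44 array. It is tied in the annotation to the same source sequence as 217437_s_at. It is the only TACC1 probe set without the suffix _s_at, which marks probes shared by several transcripts. A table limited to probe sets without the suffixes _s_at and _x_at therefore shows a TACC1 difference of 0.09. The gap of 200911_s_at to 217437_s_at was -1.78. To 217433_at the gaps of 200911_s_at and 217437_s_at were -3.86 and -2.08. Each had an exact permutation p of 0.1, and 0.15 after adjustment over the pairs.

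ADAM9 encodes a membrane metalloprotease that sheds growth factors and other proteins from the cell surface, and it was lower in LCCTam. Its probe set 202381_at read 9.69, 9.69 and 9.94 in LCCTam, against 11.24, 11.15 and 10.77 in SUM44. The lines were separated on every array. LCCTam averaged 9.77 ± 0.15 and SUM44 11.05 ± 0.24 (SD, n = 3 each), a difference of -1.28 (SE 0.14, limma adjusted p = 0.00472), or 2.43-fold lower. ADAM9 passed in all 6 fits with an array left out, at differences of -1.42 to -1.19, and with the other scaling, weights, filters and priors it passed in all 13 refits.

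**Figure D2:**
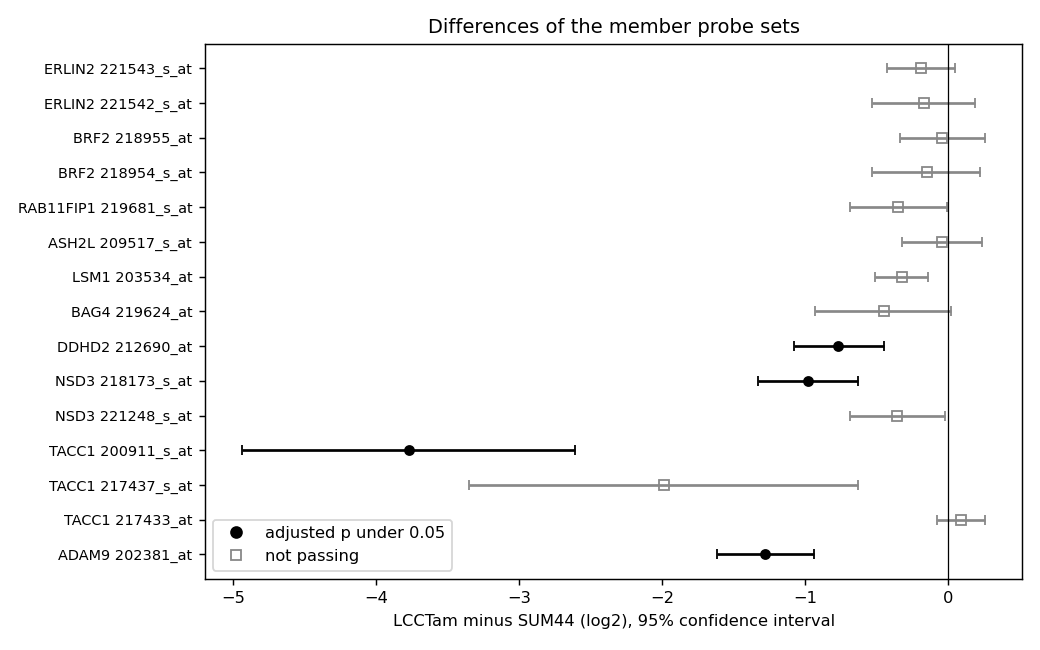
Difference of each member probe set, LCCTam minus SUM44 in log2 units, with its 95% confidence interval from limma, in order along 8p from top to bottom. Filled circles passed an adjusted p of 0.05 and open squares did not. The 4 filled points belong to DDHD2 (-0.77), NSD3 (-0.98), TACC1 (-3.77) and ADAM9 (-1.28), and the TACC1 probe set 217433_at lies at 0.09.

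Among themselves the SUM44 arrays did not order the members the same way. SUM44 replicate 3 was the lowest SUM44 array for 7 of the 15 probe sets, among them ADAM9, RAB11FIP1 and 2 of TACC1, and the highest for 6, among them ASH2L, DDHD2, both of ERLIN2 and the brighter of NSD3. LCCTam replicate 3, the array with the wider 3' minus 5' differences, was the lowest LCCTam array for 8 of the 15, among them both probe sets of ERLIN2 and of BRF2, RAB11FIP1, LSM1 and BAG4. The shares of all probe sets lowest or highest in these arrays were not counted. The upper quartile of LCCTam replicate 3, 7.50, was the lowest of the 6 arrays. Leaving LCCTam replicate 3 out brought the differences of DDHD2, NSD3 and ADAM9 further from 0, to -0.88, -1.08 and -1.36. That of TACC1 came nearer, to -3.62. The median of the 10 genes by their brightest probe sets was then -0.28, against -0.40 with all arrays.

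Other genes of the region were read for comparison, from a list of 51 between NRG1 and HGSNAT, of which 35 had a probe set with 1 symbol. Each gene was represented by its brightest probe set. In limma 1 was higher and 3 were lower in LCCTam, with 31 not passing and a median of -0.013. Over all 11963 genes 1.98% were higher and 5.58% lower. The median of the 35 includes dim genes, in which a difference can be compressed. With probe sets dim in both lines removed, 20 neighbours remained, of which 1 was higher and 2 were lower. The gene that rose was TTI2, which helps assemble kinases of the PIKK family and lies on the telomeric side of ERLIN2, at 6.93, 6.88 and 6.68 in LCCTam, against 6.28, 6.35 and 6.27 in SUM44 (difference 0.53, adjusted p = 0.0207). The genes that fell all lie between ADAM9 and the centromere. GOLGA7, a subunit of a palmitoyltransferase for RAS proteins, differed by -0.58 (adjusted p = 0.0151), ZMAT4, a zinc finger gene, by -0.89 (adjusted p = 0.0363) and RNF170, a ubiquitin ligase that acts with the ERLIN complex, by -0.79 (adjusted p = 0.0405). These calls were fragile, since TTI2 passed in 1, GOLGA7 in 2, ZMAT4 in 0 and RNF170 in 1 of the 6 fits with an array left out.

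FGFR1, the fibroblast growth factor receptor gene that lies between NSD3 and TACC1, did not pass on any of its probe sets. Its brightest probe set, 211535_s_at, read 9.67, 9.59 and 9.28 in LCCTam, against 9.95, 9.95 and 9.83 in SUM44 (difference -0.40, interval -0.68 to -0.12, limma adjusted p = 0.0987). The lines did not overlap there, nor on 210973_s_at, which differed by -0.63 (interval -1.23 to -0.02, adjusted p = 0.216). The remaining FGFR1 probe sets overlapped, with differences from -0.06 to 0.27. PLEKHA2, between TACC1 and ADAM9, was dim and differed by -0.04 (adjusted p = 0.857).

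Genes of chromosome 8 were then described by stretches, in the order of the RefSeq table. From ZNF703 to ADAM9, the stretch that holds the members, 4 of 17 measured genes were lower (23.5%) and 0 higher, with a median of -0.32. All 4 were members, and of the 7 other genes 0 passed in limma, with a median of -0.041 and 1 lower at an unadjusted p under 0.05. ADGRA2, ADRB3, STAR and PLEKHA2 lay near or below the array medians in both lines, where differences can be compressed. They differed by 0.02, 0.19, 0.17 and -0.04. The brighter PLPBP, EIF4EBP1 and FGFR1 differed by -0.17, -0.48 and -0.40. Between ADAM9 and HGSNAT 3 of 25 were lower, with a median of -0.013. Telomeric to ZNF703, 9 of 126 were lower (7.14%) and 2 higher, with a median of 0.059. On the long arm 34 of 266 were lower (12.8%) and 1 higher, with a median of -0.069. On all other chromosomes 5.35% were lower and 2.03% higher, with a median of 0.019. The members were chosen by name within the first of these stretches, so their share describes that choice. Without SUM44 replicate 2, 1 gene of the 17 passed, and without LCCTam replicate 1 or 2, 2 passed.

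**Figure D3:**
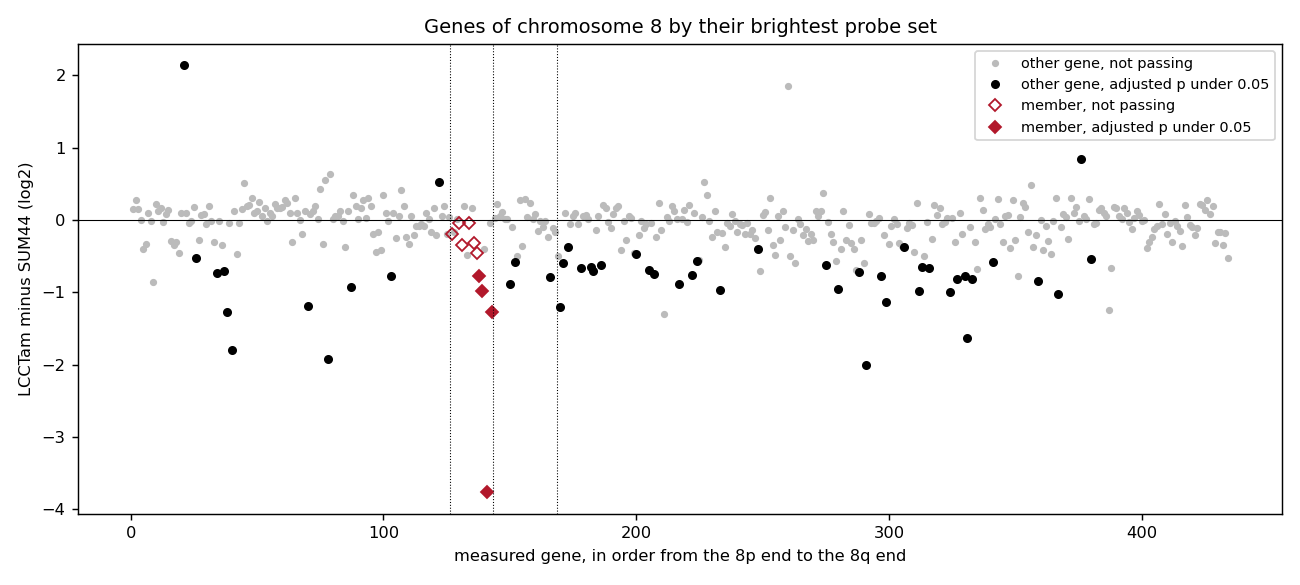
LCCTam minus SUM44 in log2 units for the 434 measured genes of chromosome 8, each by its brightest probe set, in gene order from the 8p end to the 8q end. Diamonds are the 10 members and circles other genes, with filled diamonds and black circles passing an adjusted p of 0.05, and dotted lines mark ZNF703 to ADAM9, the part up to HGSNAT and the long arm. TACC1 at -3.77 is the lowest point. Genes passing as lower lie on both arms, from DLC1 on 8p to PTK2 on 8q, and not nearer either end.

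Genes of the families and complexes that the 10 proteins belong to were read from 10 lists of 103 genes, of which 84 were measured. In limma 2 were higher (2.38%), 8 lower (9.52%) and 74 did not pass, with a median of -0.026. Over all genes 1.98% were higher and 5.58% lower by the same rule, and at an unadjusted p under 0.05 these shares were 8.81% and 14.9%. These counts were lower without LCCTam replicate 1 (3 in all), LCCTam replicate 2 (5) and SUM44 replicate 2 (2), and higher without LCCTam replicate 3 (16).

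Among ADAM proteases and their inhibitors, the family of ADAM9, 2 of 10 measured genes were lower and 0 higher in limma (2 lower and 1 higher at an unadjusted p under 0.05), where 5.58% of all genes were lower. ADAM10, a sheddase of Notch and cadherins, read 7.44, 7.53 and 7.85 in LCCTam, against 8.53, 8.57 and 8.49 in SUM44 (difference -0.93, limma adjusted p = 0.0076), and its 2 other probe sets were lower too. Without SUM44 replicate 2 its adjusted p was 0.0522. TIMP1, an inhibitor of metalloproteases, read 4.98, 4.81 and 5.20 in LCCTam, against 6.50, 6.24 and 6.36 in SUM44 (difference -1.37, adjusted p = 0.00243). The lines did not overlap for either gene.

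Of the genes around NSD3 and ASH2L, which act on histones, 1 of 4 and 2 of 11 measured were lower, where 5.58% of all genes were. In limma 0 were higher on either list. At an unadjusted p under 0.05, 3 of the 4 were lower, and of the 11, 2 were lower and 1 higher. NSD2, the paralog of NSD3, differed by -0.70 on its brightest probe set (limma adjusted p = 0.0175), and its 2 other probe sets were lower at -0.98 and -0.89. KDM6A, a histone demethylase of the COMPASS-like complexes, differed by -0.61 (adjusted p = 0.00914) and MEN1, which encodes menin, by -0.53 (adjusted p = 0.0313). With an array left out NSD2 passed in 3, KDM6A in 4 and MEN1 in 2 of 6 fits. The 2 dimmer KDM6A probe sets did not pass.

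BAG1, the founding member of the BAG cochaperone family of BAG4, was the gene with the largest increase on these lists. It read 9.85, 10.27 and 9.99 in LCCTam, against 8.35, 8.06 and 8.34 in SUM44 (difference 1.79, SE 0.14, limma adjusted p = 0.00148, 3.46-fold). Its other probe set, 202387_at, was higher by 1.60, and BAG1 passed in all 6 fits with an array left out. The other 5 measured genes of this list did not pass on their brightest probe sets, where 1.98% of all genes were higher and 5.58% lower. At an unadjusted p under 0.05, 2 genes of the list were higher, BAG1 included, and 1 was lower. A dimmer probe set of BAG5 was lower by 0.60 (-0.60, adjusted p = 0.0441).

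Among the genes of LSM rings and decapping, around LSM1, 1 of 13 rose and 1 fell, where 1.98% of all genes were higher and 5.58% lower. At an unadjusted p under 0.05, 2 were higher and 3 lower. LSM4, a subunit of the same ring, was higher by 0.57 (limma adjusted p = 0.0118), and the decapping enzyme gene DCP2 differed by -0.57 (adjusted p = 0.0181). LSM4 passed in 4 and DCP2 in 1 of the 6 fits with an array left out. Of the genes of endoplasmic reticulum degradation around ERLIN2, 2 of 10 fell and 0 rose, where 5.58% of all genes were lower. At an unadjusted p under 0.05, 2 were lower and 1 higher. The genes that fell were RNF170, named above, and SEL1L, an adaptor of a ubiquitin ligase, at -0.65 (adjusted p = 0.0256), which passed in 2 of those 6 fits.

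On the 4 remaining lists 0 genes passed in limma by their brightest probe sets. TACC3 had the largest difference among 5 genes around TACC1 (-0.49, adjusted p = 0.352, with 1 of the list lower at an unadjusted p under 0.05). For RNA polymerase III and TFIIIB it was POLR3E among 14 genes (0.39, adjusted p = 0.261, with 1 higher and 2 lower unadjusted). For the RAB11 endosome it was RAB11B among 10 genes (0.50, adjusted p = 0.275, with 1 lower unadjusted). SEC23IP, the 1 measured relative of DDHD2, differed by -0.36 (adjusted p = 0.144, lower at an unadjusted p of 0.0219), and its dimmer probe set 209175_at by -0.38 (adjusted p = 0.0384).

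**Figure D4:**
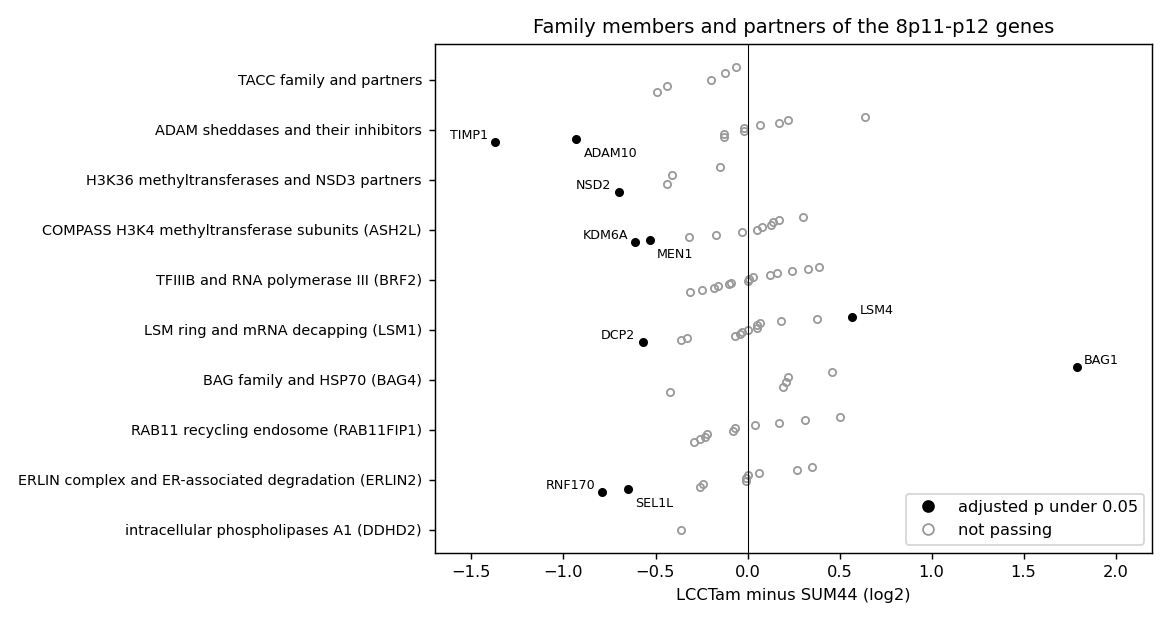
LCCTam minus SUM44 in log2 units for family members and partners of the 10 proteins, 1 row a list and 1 point a gene by its brightest probe set. Filled points passed an adjusted p of 0.05 and carry the gene's name, and open points did not. BAG1 stands highest at 1.79 and TIMP1 lowest at -1.37.

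The probe sets most like TACC1 200911_s_at across the 6 arrays were sought among 2017 named probe sets with a range of at least 1. The 5 genes with the highest Pearson correlation were the zinc finger gene HIVEP1 (0.998), the histone reader gene SPIN1 (0.996), DNAJC15 (0.996), PSD3 (0.995) and MFAP3L (0.994). The 6 arrays fall into 2 lines, so such values mostly describe the gap between them, together with the lower level of SUM44 replicate 3. DNAJC15, a mitochondrial cochaperone, read 4.92, 4.63 and 4.76 in LCCTam, against 8.44, 8.08 and 6.58 in SUM44. PSD3, an exchange factor for ARF6, read 5.75, 5.77 and 5.54 in LCCTam, against 7.71, 7.72 and 7.04 in SUM44, and it also lies on chromosome 8. In both, SUM44 replicate 3 was the lowest SUM44 array, as in TACC1, which the choice by correlation with TACC1 favours.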

How the data were processed

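Total RNA of 6 samples was hybridised to Affymetrix arrays of 22283 probe sets, per the labels' protocols. The deposited log2 values are RMA output of the authors (Bioconductor), per the design text. RMA subtracts background, normalizes between arrays and summarises probe sets, and can compress differences of dim genes. Its version is not given in the sources used here, and the number of arrays limits the precision. Array batches were not analysed here. Leaving out 68 controls, 22215 probe sets entered lmFit and eBayes of limma 3.58.1 (R 4.3.3, prior degrees of freedom 2.98), LCCTam minus SUM44, with no pairing and Benjamini-Hochberg adjustment over all of them. Samples were grouped by their titles. Names came from the platform annotation, for 19065 probe sets with 1 symbol, updated and ordered along chromosome 8 with RefSeq of GRCh38.p14. The files name no genome build, so coordinates are not printed. Sequences of chromosome 8 genes are not printed.

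The brightest probe set stood for a gene outside the member list. Named were all members, FGFR1, each passing neighbour, up to 3 passing genes of each partner list or else its largest difference, and the 5 genes most like the member probe set with the largest difference. Other probe sets were named with their values in view. The members and lists were chosen with earlier results of these data known. The fit was tested on simulated data. Alternatives changed the arrays, scaling, array weights, filters, prior and call rule.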

Additional observations from a re-analysis of the deposited data

How the results depend on the processing

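Member differences were refitted under each alternative. The number of member probe sets passing, 4 in limma, was 8 with array weights, 2 of 6 without _x_at and _s_at probe sets (DDHD2 and ADAM9), 2 with at least 2-fold required (TACC1 and ADAM9), and 1 to 5 with single arrays left out. Over all probe sets 1494 passed. This became 6828 with array weights, 705 without _x_at and _s_at, 378 with at least 2-fold, 454 by the selection of the design text, and 357 to 2398 with single arrays left out. Of these calls 76.8% were lower in LCCTam, against 57.1% after quantile normalization, 51.5% with array weights and 60.7% without LCCTam replicate 3. Of the neighbours 4 passed, and 9 with array weights, 0 with at least 2-fold, 0 by the design text's selection, and 0 to 3 with single arrays left out, where 5 to 8 had an unadjusted p under 0.05 in limma. Of the partner genes 10 passed, and 39 with array weights, 3 without _x_at and _s_at, 2 with at least 2-fold, 2 by the design text's selection, and 2 to 16 with single arrays left out. From ZNF703 to ADAM9 4 passed, and 1 to 4 with single arrays left out, an alternative chosen after seeing the data. Array weights gave LCCTam replicate 1 a weight of 5.70 and LCCTam replicate 3 a weight of 0.199. The cause of these changes was not tested, except that fewer probe sets were tested without the suffixes. For single members, 193 of the alternative results kept their call or lack of one, 13 lost and 8 gained a call. These include the 2-fold rule and the design text's selection, which changed only the call. Under both rules DDHD2 and NSD3 218173_s_at lost their calls with unchanged values. Only the 4 probe sets called in the main fit could lose a call. With the call rule kept, DDHD2 passed in 8 of 13 refits and NSD3 218173_s_at in 9 of 12. TACC1 200911_s_at passed in 11 of 12 and ADAM9 in 13 of 13. No paired analysis was possible because the lines share no passage number.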
